A study of Mus musculus with 5 samples.

Results

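Reads on small nuclear RNA (snRNA) genes were followed in ribosome profiling of cultured mESCs, mouse embryonic stem cells, which are pluripotent. The transcripts were selected on their own read counts. Of 135276 transcripts in the table, 1383 belonged to the Gencode gene type snRNA, and 120 of these reached 1 CPM (a read count scaled to a common library total) in at least 1 of 5 libraries once duplicate reads had been removed. At least 1 read was present on 552 of the 1383. In 94 of the 120 the threshold was passed in both methods, in 23 only in AHARIBO RIBO-seq and in 3 only in standard RIBO-seq, and 20 passed in a single library. A transcript that passed only through the AHARIBO libraries had to be higher there, so counts and medians over the 120 are given as a description and not as support for a difference. The transcripts just inside the threshold were Gm24200, Gm24928 and Gm25897, each at 1.05 CPM in their highest library, and those just outside were Gm25115 and Gm23540 at 0.999 CPM and Gm22116 at 0.993 CPM.

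Standard RIBO-seq was represented by 3 libraries and AHARIBO RIBO-seq by 2, and the deposited labels call all of them untreated, with no genotype other than that of mESCs. Cycloheximide, which stops elongating ribosomes, was applied in both methods, and RNase I (1.3 U, 45 min) was used to digest the RNA that ribosomes did not cover. In the standard method, ribosomes were collected by centrifugation through 30% sucrose. In AHARIBO, nascent peptides that carry the methionine analogue L-azidohomoalanine (AHA) were joined to a biotin reagent (DBCO-PEG4-biotin, 50 µM) and caught on magnetic beads with the ribosomes that hold them, and the methods describe no sucrose step for these libraries. Gel-purified fragments of 25 to 35 nt were sequenced from both methods. For proteomics and RNA-seq with AHA in mESCs, the paper describes methionine depletion, then AHA, then sBlock, a reagent that contains anisomycin, before lysis. Its section on the ribosome profiling libraries does not restate these steps. The cells of the 2 methods may therefore have differed in more than the way ribosomes were collected. The study places standard RIBO-seq on the input of the capture and describes 2 independent replicates for each method, while 3 standard libraries were analysed here. Neither the study nor the labels say whether the libraries came from separate cultures. The p-values measure the spread between these libraries, which may be technical.

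Most snRNAs are short nuclear RNAs that each form the core of a ribonucleoprotein particle (snRNP). U1 pairs with the start of an intron, U2 with its branch point, U5 holds the exon ends, and U4 keeps U6 inactive until the spliceosome is assembled, while U11, U12 and U6atac take the places of U1, U2 and U6 in the minor spliceosome. U7 does not splice but directs the cutting of histone mRNA ends. Except for U6 and U6atac, these RNAs pass through the cytoplasm, where a ring of Sm proteins is placed on a short uridine-rich site, and they have no known coding function. Mammalian genomes hold many copies and decayed copies of each.

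The most abundant transcript of each of 6 families is shown, as annotated in Gencode M21 on GRCm38, because the results below turn on them, together with the U1-like Gm24621. Capitals mark an Sm-like stretch, spelled ATTTNTG or, in its longer form, ATTTTTTG. In U1 they also mark ACTTACCTG and in U2 the letters GTAGTA, which hold the parts that pair with pre-mRNA. In U7 they mark TTTGTCTAG, which lies in the Sm site particular to this RNA. Searches used the transcript strand only.
Gm26232 (U1, chr3:96450446-96450611, plus strand): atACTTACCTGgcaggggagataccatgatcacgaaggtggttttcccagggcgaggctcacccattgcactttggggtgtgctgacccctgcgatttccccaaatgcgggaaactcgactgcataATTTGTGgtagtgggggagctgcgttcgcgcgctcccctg
Gm24621 (U1-like, chr4:129458351-129458490, plus strand): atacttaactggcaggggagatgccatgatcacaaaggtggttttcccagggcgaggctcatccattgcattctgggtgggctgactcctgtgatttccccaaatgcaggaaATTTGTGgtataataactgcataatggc
Gm23472 (U2, chr1:72236946-72237136, plus strand): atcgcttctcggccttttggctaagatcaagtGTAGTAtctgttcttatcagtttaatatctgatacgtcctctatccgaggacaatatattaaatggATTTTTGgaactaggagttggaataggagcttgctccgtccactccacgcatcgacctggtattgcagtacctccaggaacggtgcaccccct
Gm24407 (U4, chr5:115490254-115490394, plus strand): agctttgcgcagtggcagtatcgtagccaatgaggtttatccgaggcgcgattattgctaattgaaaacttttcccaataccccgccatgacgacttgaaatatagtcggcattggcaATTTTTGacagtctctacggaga
Rnu11 (U11, chr4:132270080-132270213, minus strand): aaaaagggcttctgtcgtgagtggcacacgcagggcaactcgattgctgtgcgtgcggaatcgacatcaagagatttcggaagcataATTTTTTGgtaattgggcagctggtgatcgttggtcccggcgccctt
Rnu12 (U12, chr15:83149644-83149794, plus strand): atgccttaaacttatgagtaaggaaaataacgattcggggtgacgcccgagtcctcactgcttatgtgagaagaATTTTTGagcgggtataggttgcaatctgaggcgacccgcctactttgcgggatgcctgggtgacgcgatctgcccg
Rnu7 (U7, chr6:124741225-124741286, minus strand): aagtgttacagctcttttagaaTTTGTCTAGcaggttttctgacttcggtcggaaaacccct
An Sm-like stretch was found in 81 of the 120 transcripts (67.5%) and in 300 of all 1383 snRNA transcripts (21.7%). These shares differ in family make-up, since U6, with a match in 13.9% of its annotated transcripts, holds 931 of the 1383 and 8 of the 120. Within families, the share among the 120 and among the annotated was 75.0% and 53.2% in U1 and 90.0% and 66.7% in U2. It was 90.9% in both for U5, and 0% and 27.9% in U7. A missing match says only that these letters are not in the sequence. The U1 letters were present in 26 of 52 U1 transcripts with at least 1 CPM and in 32.5% of the 154 annotated, and the U7 letters in 3 of 3 and in 11.5% of 61.

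By family, the 120 transcripts were 52 of U1, 20 of U2, 14 of U4, 11 of U5, 8 of U6, 4 of U11, 4 of U12, 3 of U7, 1 of U6atac and 3 that could not be assigned. The median identity to the most abundant transcript of the family was 98.4% in U2, 93.1% in U5 and 82.2% in U1. Reads of 25 to 35 nt can therefore match several of these genes, and 102 of the 120 shared at least 1 window of 28 nt with another snRNA gene. The counts themselves show such sharing. Rnu2-10, Gm23849, Gm23971 and Gm24950 have the same 191 nt, and their counts over 5 libraries differed by 2 reads in sum after removal of duplicates. In 4 other groups of identical copies the counts with duplicates removed differed by 6 to 9 reads. With duplicates kept Gm23444 and Gm23472 differed by 1271 reads, and the other groups by 5 to 9. In these groups most reads were therefore counted for every copy, so copies of a family are not independent measurements and sums over a family count reads repeatedly. Rare identical copies outside the 120 did not show this. For example, 7 identical U1 copies held 4, 7 and 2 reads in sum in the standard and 19 and 7 in the AHARIBO libraries.

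After removal of duplicates the standard libraries held 6403651 to 9110668 reads and the AHARIBO libraries 9972892 and 11150527, and 3 counts, taken as the limit that a count of 0 allows, corresponded to 0.262 to 0.476 CPM. This limit covers counting error only. The 8 markers of embryonic stem cells examined lay between 60.4 and 276 CPM in all libraries. Markers of mesoderm were between 0 and 0.793 CPM, of endoderm between 0.525 and 2.22, of fibroblast feeder cells between 0.221 and 3.49, and of neural cells between 1.99 and 36.8. In bulk libraries such as these, fewer cells with an RNA and less of that RNA per cell cannot be told apart.

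Whether snRNA reads differ between the methods was asked first with duplicates removed. U5 and U7 copies, a U12 copy, several rare U1-like copies and a U2-like copy were higher in AHARIBO RIBO-seq, 16 of them by 1.28-fold to 2.68-fold and 2 on few reads, whereas the abundant U1, U2 and U4 copies were not called. In all, 18 of the 120 transcripts were higher (edgeR quasi-likelihood test, Benjamini-Hochberg adjusted p under 0.05 over 66972 transcripts) and 0 were lower, beside 2.27% higher and 2.24% lower of all transcripts tested. The tests at an unadjusted p under 0.05 numbered 41 higher and 2 lower, the latter being the U4 copies Gm22249 and Gm22122. The share of all transcripts at that level is not given here, so these numbers are a description. The median log2 fold change of the 120 was 0.45, and that of all tested transcripts was 0.00. It was 0.18 over the 72 that passed in every library, 0.15 over the 39 with a mean of at least 10 CPM and 1.11 over the 23 that passed only in AHARIBO RIBO-seq, so that the value over the 120 moves with the selection. Both AHARIBO libraries lay above all 3 standard libraries for 41 of the 120 transcripts, and for 17.3% of all transcripts tested. The count of 18 fell to 3 without standard replicate 1 and to 3 without AHARIBO replicate 2, and in the latter case 3 U4 copies were called lower. DESeq2 called 2 higher and 0 lower, with 19 higher and 1 lower at an unadjusted p under 0.05, and gave no adjusted p for 81 of the 120. The U5 copy Gm24871 and the U7 gene Rnu7 passed under every alternative tried, with adjusted p-values up to 0.0303 and 0.0487.

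**Figure D1:**
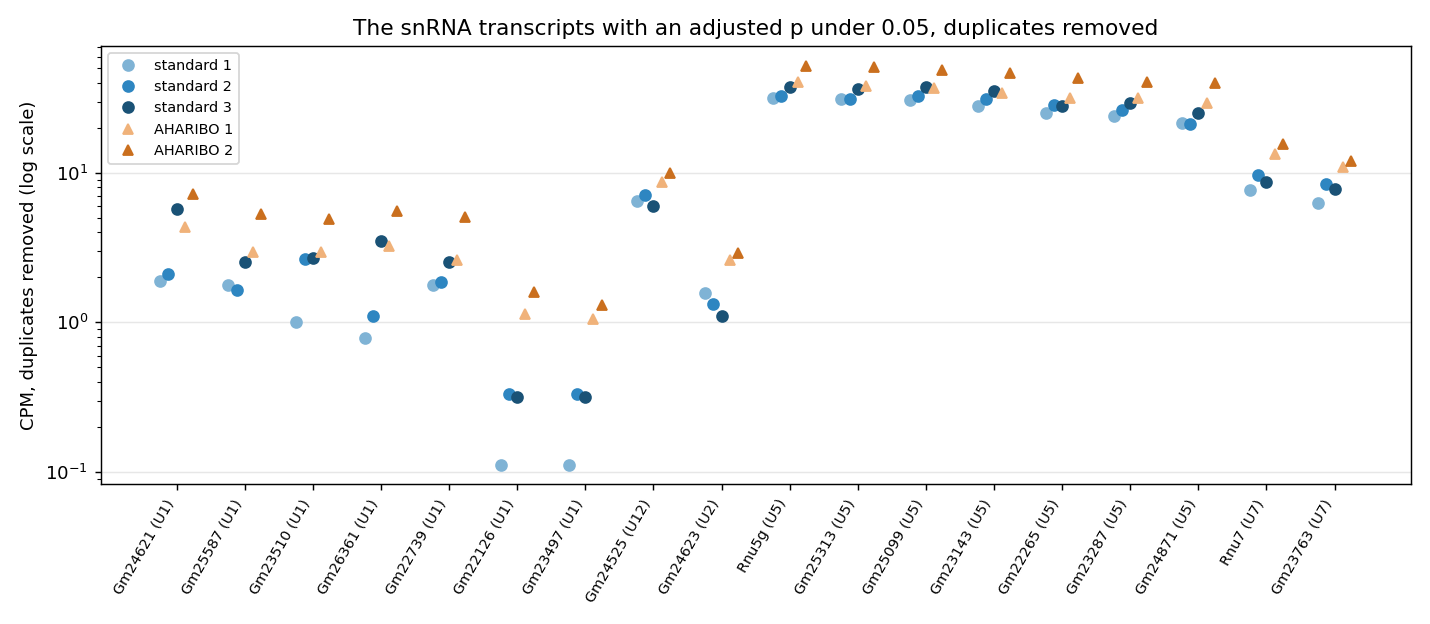
The 18 snRNA transcripts with an adjusted p under 0.05 after removal of duplicates, with CPM on a log axis and a point for each library (circles, 3 standard libraries; triangles, 2 AHARIBO libraries). The U5 copies lie between 21.3 and 52.0 CPM, Rnu7 between 7.73 and 15.7 CPM, and the U1-like and U2-like copies at 7.19 CPM or below.

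With duplicate reads kept, most U1, U2, U5, U6 and U7 transcripts were higher in AHARIBO RIBO-seq in the same libraries. Of the 120 transcripts, 106 reached 1 CPM in that version, and 68 of these were higher in AHARIBO RIBO-seq by edgeR and 0 lower (0 lower also at an unadjusted p under 0.05 and with DESeq2), beside 1.92% higher and 1.51% lower of 60283 transcripts tested. Their median log2 fold change was 1.70 against 0.00 for all transcripts. Of the 68, 59 were among the 94 that had passed the threshold in both methods. The other 9 were among the 23 that had passed only in AHARIBO RIBO-seq, where the selection favoured this direction. Both AHARIBO libraries lay above all standard libraries for 92 of the 120, and for 19.6% of the 60283 transcripts tested. The 92 include transcripts not tested in this version, and 20 of them had passed the threshold only in AHARIBO RIBO-seq, so the 2 figures are not over like sets. DESeq2 called 44 higher, and leaving out each library in turn gave 48 to 78. Among the 72 transcripts that had at least 1 CPM in every library with duplicates removed, 54 were higher with duplicates kept and 15 with duplicates removed. Of the 18 called with duplicates removed, 15 were also called with duplicates kept. The sources used here describe no molecular identifiers and do not say how duplicates were defined (by position, by sequence or by both). Without identifiers, copies made during amplification and independent fragments of the same sequence cannot be told apart from these counts.

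**Figure D2:**
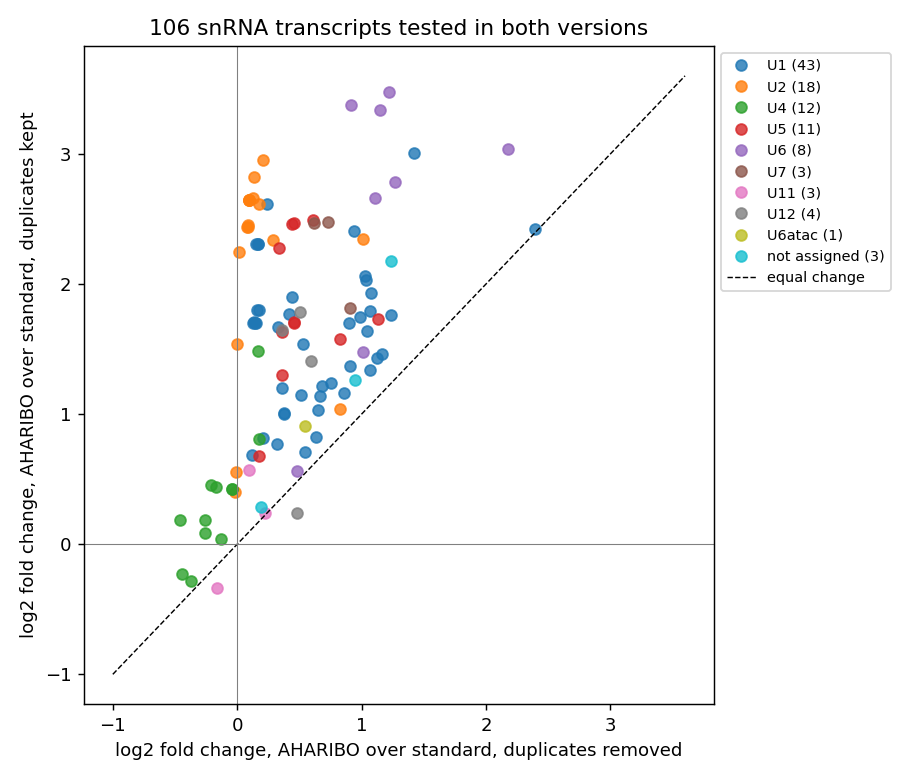
log2 fold changes of AHARIBO over standard RIBO-seq with duplicates removed (x) and kept (y) for the 106 snRNA transcripts tested in both versions, coloured by family, with a dashed line of equal change. Most U1, U2, U5, U6 and U7 points lie above the line, and the U4 and U11 points lie nearer to it. Over the transcripts tested in each version, the medians are 0.09 and 2.45 for U2, 0.45 and 1.71 for U5 and -0.15 and 0.31 for U4.

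U2, which pairs with the branch point, was called with duplicates kept and mostly not with duplicates removed. With duplicates removed, Gm23472 was at 60.6, 57.4 and 65.2 CPM in the standard libraries and at 59.1 and 70.8 CPM in the AHARIBO libraries. The groups overlapped, and the log2 fold change was 0.09 ± 0.09 (SE, n = 3 and 2, edgeR adjusted p = 0.621). With duplicates kept, the same transcript was at 254, 277 and 186 CPM in the standard and at 1173 and 1418 CPM in the AHARIBO libraries. The groups were then far apart, with a log2 fold change of 2.44 ± 0.13 (edgeR adjusted p = 4.89e-07). Rnu2-10, which differs from Gm23472 at few positions (identity 99.5%), held 3872, 4014 and 2053 reads against 27940 and 26326, or 6.25-fold in normalized terms. Of the 20 U2 transcripts, 15 of the 18 tested were higher with duplicates kept, and 1 of 20 with duplicates removed. That transcript was the U2-like Gm24623 (74.7% identity), at 1.57, 1.33 and 1.11 CPM against 2.62 and 2.90 CPM (log2 fold change 1.01 ± 0.31, edgeR adjusted p = 0.0446), and it lacks the letters GTAGTA. Its call was lost on leaving out any of the 5 libraries (adjusted p = 0.0897 to 0.236) and with the replicate block (adjusted p = 0.128). Without AHARIBO replicate 2 the small log2 fold change of Gm23472 with duplicates removed turned to -0.04.

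U1, which recognizes the start of introns, had the most copies among the 120 transcripts. Gm26232, with the same sequence as Rnu1b6 and Gm24830, was at 25.3, 25.9 and 28.7 CPM in the standard libraries and at 25.7 and 34.1 CPM in the AHARIBO libraries with duplicates removed (log2 fold change 0.17 ± 0.10, edgeR adjusted p = 0.396). With duplicates kept it was at 118, 220 and 122 CPM against 588 and 931 CPM, with no overlap (log2 fold change 2.31 ± 0.24, edgeR adjusted p = 0.000153). Rnu1b1, another U1 gene on chromosome 3, rose from 63.1 ± 7.14 (SD, n = 3) to 205 ± 98.9 CPM (SD, n = 2) with duplicates kept (log2 fold change 1.70 ± 0.21, edgeR adjusted p = 0.000793). The difference between the U1 genes was not tested. In all, 27 of 43 U1 transcripts tested were higher with duplicates kept.

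The 7 U1 transcripts called with duplicates removed were all rare. Gm24621 was at 1.90, 2.10 and 5.71 CPM in the standard and 4.37 and 7.19 CPM in the AHARIBO libraries, and standard replicate 3 lay above AHARIBO replicate 1. Its log2 fold change was 0.93 ± 0.25 (edgeR adjusted p = 0.0213). Gm25587, Gm23510, Gm26361 and Gm22739 had log2 fold changes of 1.06, 0.91, 1.42 and 0.90. Gm26361 overlapped between the groups, with 3.49 CPM in standard replicate 3 and 3.24 CPM in AHARIBO replicate 1. All 7 calls were lost without standard replicate 1 and also without AHARIBO replicate 2. Without AHARIBO replicate 2 the log2 fold changes of Gm24621, Gm25587, Gm23510 and Gm22739 were 0.56, 0.62, 0.53 and 0.38, and that of Gm23510 was 0.54 without standard replicate 1. Without standard replicate 3 those of Gm24621 and Gm26361 were 1.503 and 2.19. Gm22126, in an intron of Cdyl, and Gm23497, in an exon of Tfcp2l1, rested on 6 reads each over the standard libraries and 29 and 25 over the AHARIBO libraries. Both were selected through the AHARIBO libraries alone, so their direction was fixed by the selection and their values are a description. Their rate ratios were 5.61 (exact 95% interval 2.29 to 16.5) and 4.83 (1.94 to 14.4), intervals that cover counting error only. Set against the first 11 bases of Gm26232 without gaps and counted from 1 at the 5′ end, Gm25587 had no difference, Gm24621 had C8A, Gm23510 had C9T and Gm22126 had A7T. Gm23497 had 3 differences, Gm22739 had 5 and Gm26361 had 6. Among the 45 other U1 transcripts, which include Gm26232 itself and its identical copies Gm24830 and Rnu1b6, 22 had no difference, 9 had 1 and 14 had more.

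U5, which holds the exon ends during splicing, differed in both versions. With duplicates removed, Rnu5g was at 31.8, 32.9 and 37.6 CPM in the standard libraries and at 40.4 and 52.0 CPM in the AHARIBO libraries. The groups did not overlap (log2 fold change 0.44 ± 0.09, edgeR adjusted p = 0.00283). With duplicates kept it was at 113, 125 and 103 CPM against 705 and 549 CPM (log2 fold change 2.46 ± 0.11, edgeR adjusted p = 1.22e-07). All 11 annotated U5 transcripts were in the set, and 7 were higher with duplicates removed and 11 with duplicates kept. The 7 were Rnu5g, Gm25313, Gm25099, Gm23143, Gm22265, Gm23287 and Gm24871, with log2 fold changes of 0.36 to 0.61. Their log2 fold changes were 0.12 (Gm23143) to 0.39 (Gm24871) without AHARIBO replicate 2. Without AHARIBO replicate 1 they were 0.55 (Gm25099) to 0.82 (Gm24871). Gm25099 and Gm23143 overlapped between the groups. Without standard replicate 1, Gm25313 and Gm24871 remained called, and without AHARIBO replicate 2 only Gm24871 did. DESeq2 called Gm24871 alone of the 7.

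U4, the partner that holds U6 inactive, had small log2 fold changes in both versions for its most abundant copy. With duplicates removed, Gm24407 was at 47.7, 47.2 and 55.8 CPM in the standard and at 43.0 and 54.1 CPM in the AHARIBO libraries, and the groups overlapped (log2 fold change -0.04 ± 0.09, edgeR adjusted p = 0.85). With duplicates kept it was at 171, 181 and 148 CPM against 226 and 223 CPM, with the groups apart and a log2 fold change of 0.43 ± 0.09 (edgeR adjusted p = 0.0236). Of 12 U4 transcripts tested with duplicates kept, 3 were higher, Gm24407, its near copy Gm24265 and Gm25899, the last of these by 2.80-fold. Gm22249 was the only one of the 120 with both AHARIBO libraries below all standard libraries, at 9.86, 10.8 and 11.1 against 6.74 and 8.69 CPM with duplicates removed (log2 fold change -0.46 ± 0.15, edgeR adjusted p = 0.0576). The ratio of Gm23472 (U2) to Gm24407 (U4) within a library was 1.17 to 1.27 in the standard and 1.31 and 1.37 in the AHARIBO libraries with duplicates removed. With duplicates kept it was 1.25 to 1.53 against 5.19 and 6.36, as a description of these libraries.

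U6, which pairs with the intron start at catalysis, was the family with the most annotated copies and among the lowest in reads. Of 931 transcripts, 640 had no read and 8 reached 1 CPM, and none of the 8 had an identical copy in the table. The sequence held by 43 identical U6 copies was at most at 0.20 CPM in any copy and library, with 1, 1 and 0 reads over all copies in the standard and 5 and 9 in the AHARIBO libraries. Alignment used the default settings of STAR, which drop reads with many matches, and the part of this in the low U6 counts was not tested. With duplicates removed 0 of the 8 were called by edgeR and 0 by DESeq2, with 3 at an unadjusted p under 0.05 in edgeR. With duplicates kept 6 of 8 were higher, for example Gm26176, which held 11, 4 and 4 reads in the standard and 121 and 56 reads in the AHARIBO libraries (log2 fold change 3.34 ± 0.38, edgeR adjusted p = 0.000389). With duplicates removed the 8 together held 3.36, 3.97 and 4.28 CPM in the standard and 8.57 and 7.99 CPM in the AHARIBO libraries. For copies that passed only through the AHARIBO libraries the selection favoured this direction, so the U6 calls are a description. The most abundant by mean CPM, Gm22351, lies in an exon of the noncoding gene Gm15365 and was at 0.67, 0.88 and 1.11 CPM against 1.14 and 1.30 CPM with duplicates removed (edgeR adjusted p = 0.626).

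In the minor spliceosome, Rnu12 was higher with duplicates kept and Rnu11 was not called in either version. Rnu11, which recognizes the start of minor introns, was at 24.1, 24.8 and 26.8 CPM against 25.5 and 33.6 CPM with duplicates removed and at 172, 232 and 187 CPM against 204 and 260 CPM with duplicates kept. The groups overlapped in both versions, with log2 fold changes of 0.22 ± 0.10 and 0.24 ± 0.12 (edgeR adjusted p = 0.215 and 0.316). With duplicates removed, the log2 fold change of Rnu11 was 0.023 without AHARIBO replicate 2 and 0.42 without AHARIBO replicate 1. Rnu12, which binds the branch point of minor introns, was at 12.3, 10.6 and 9.99 CPM against 13.8 and 14.7 CPM with duplicates removed and at 13.1, 16.1 and 10.6 CPM against 41.0 and 42.8 CPM with duplicates kept. Its groups were separate in both versions, with log2 fold changes of 0.36 ± 0.13 (edgeR adjusted p = 0.0873) and 1.64 ± 0.13 (adjusted p = 9.9e-06). The U12 copy Gm24525, in an intron of Zfp804b, was called in both versions, with log2 fold changes of 0.50 and 1.79. With duplicates removed its adjusted p was 0.0462 without standard replicate 2 and 0.115 to 0.208 without any of the other 4 libraries, so that of these 5 fits only the first kept the call, and it was also lost with the replicate block, without a filter on low counts and with a filter of 0.5 CPM. The U6atac transcript Gm25541 was at 1.01, 1.88 and 1.27 CPM against 2.27 and 1.80 CPM with duplicates removed (edgeR adjusted p = 0.405). The difference between Rnu11 and Rnu12 was not tested.

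**Figure D3:**
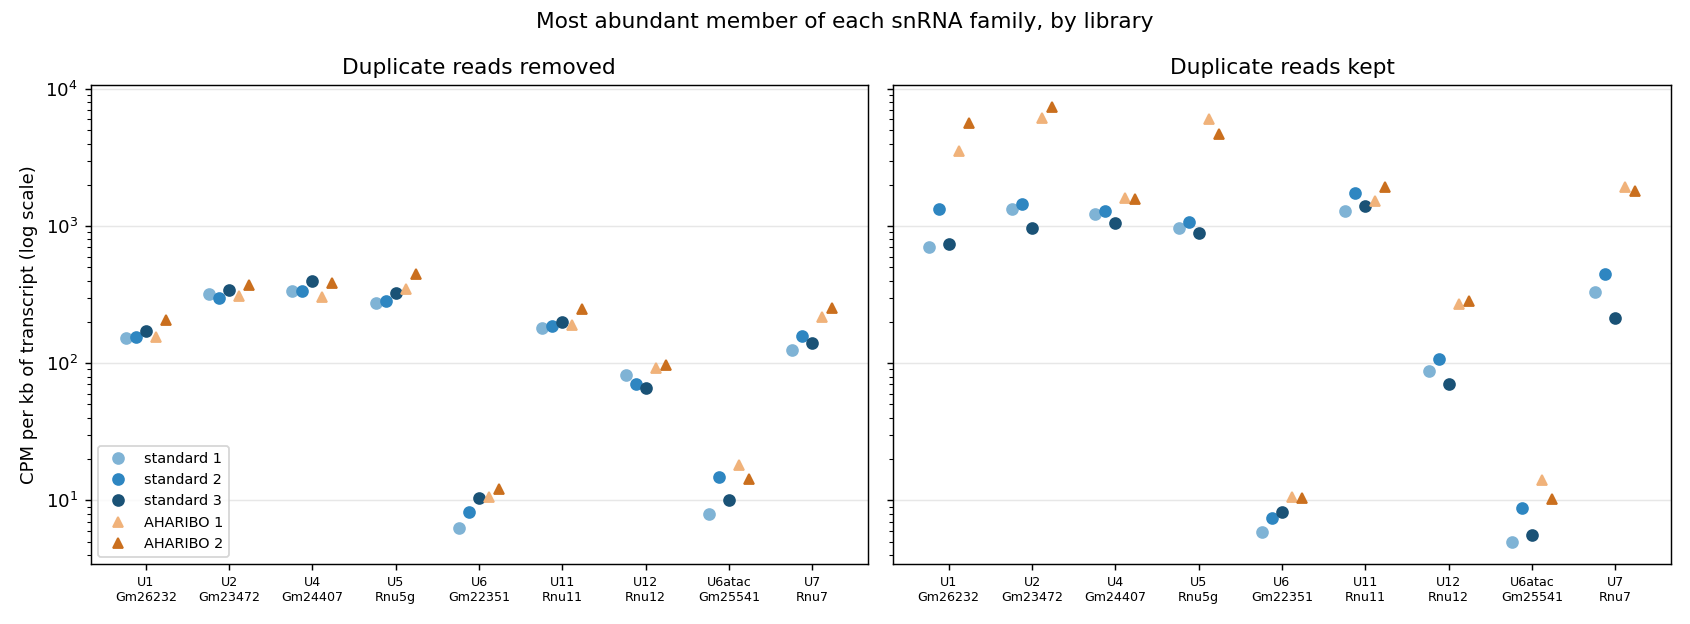
CPM per kb of transcript (log axis) of the most abundant transcript of each snRNA family in each of 3 standard (circles) and 2 AHARIBO (triangles) libraries, with duplicates removed (left) and kept (right). With duplicates removed the means over 5 libraries are 352 for U4, 336 for U5 and 328 for U2, 201 for U11, 178 for U7, 168 for U1, 81.3 for U12, 13.1 for U6atac and 9.54 for U6. With duplicates kept the standard and AHARIBO means are 1251 and 6783 for U2, but 1470 and 1733 for U11.

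U7, which acts in histone mRNA processing, was higher in both versions. Rnu7 was at 7.73, 9.71 and 8.73 CPM in the standard and at 13.4 and 15.7 CPM in the AHARIBO libraries, without overlap (log2 fold change 0.73 ± 0.13, edgeR adjusted p = 0.000403). With duplicates kept it was at 20.4, 27.7 and 13.4 CPM against 118.6 and 112 CPM (log2 fold change 2.48 ± 0.19, edgeR adjusted p = 8.39e-06). The U7 copy Gm23763 was higher in both versions as well, with log2 fold changes of 0.62 and 2.47, and of the 3 U7 transcripts all 3 were higher with duplicates kept. Without standard replicate 1, Gm23763 was not called with duplicates removed.

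Rnu7 lies on the same strand within an exon of Grcc10, a coding gene, and each of its windows of 28 nt is found in a coding transcript. With duplicates kept the Grcc10 transcript held 649, 792 and 372 reads in the standard and 2912 and 2317 reads in the AHARIBO libraries, or 40.6, 48.8 and 32.5 against 137 and 130 CPM (log2 fold change 1.71, edgeR adjusted p = 6.27e-06). Reads on Rnu7 equalled 50.2%, 56.7% and 41.1% of these in the standard libraries and 86.6% and 86.3% in the AHARIBO libraries. If each is taken as counted for Grcc10 too, 20.2, 21.1 and 19.1 CPM remained for the rest of Grcc10 in the standard and 18.3 and 17.7 CPM in the AHARIBO libraries. Both AHARIBO values of this rest lay below the standard values, so the higher count of the Grcc10 transcript with duplicates kept was not seen outside Rnu7. With duplicates removed Grcc10 was at 37.9 ± 2.94 (SD, n = 3) and 40.1 ± 0.775 CPM (SD, n = 2) and was not called (edgeR adjusted p = 0.702). The U5 copy Gm24871 lies in the same way in an exon of the noncoding gene B930036N10Rik, whose transcript was called higher with duplicates removed (log2 fold change 0.47 ± 0.10, edgeR adjusted p = 0.0016). Reads on Gm24871 equalled 72.6% to 76.1% of it in the standard and 79.8% and 83.8% in the AHARIBO libraries, and the rest was at 8.18, 7.17 and 7.93 against 7.44 and 7.69 CPM. With duplicates kept the same rest was at 10.9, 9.98 and 7.94 against 14.1 and 17.5 CPM, both AHARIBO libraries being above the standard libraries.

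Position relative to other genes was recorded for all 120. Outside other genes lay 66, in an intron of a coding gene on the same strand 24, opposite to a coding gene 14, in a same-strand exon of a coding gene 4, in an exon of another gene 3, in an intron of another gene 5 and opposite to another gene 4. Of the 42 inside or opposite to a coding gene, 10 were higher with duplicates removed and 22 of 34 tested with duplicates kept. Of the 78 others, 8 and 46 of 72 were. Of all transcripts tested, 2.27% were higher with duplicates removed and 1.92% with duplicates kept. The median log2 fold changes inside or opposite to a coding gene and elsewhere were 0.65 and 0.35 with duplicates removed and 1.61 and 1.70 with duplicates kept. The difference between these positions was not tested. The exonic 4 were Rnu7 in Grcc10, Gm23497 in Tfcp2l1, Gm25818 in Creb5 and Gm26505 in Tmco5b. Tfcp2l1, a pluripotency factor, was itself higher with duplicates removed (88.7 ± 1.70 and 108 ± 4.91 CPM, edgeR adjusted p = 0.0257). With duplicates kept Tfcp2l1 was not called (log2 fold change 0.19, edgeR adjusted p = 0.219). Creb5 was not called with duplicates removed (edgeR adjusted p = 0.379) and Tmco5b was not tested. No window of Gm26505 was found in a coding transcript.

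The number of reads per distinct read, that is, the count with duplicates kept over the count with duplicates removed, was higher on snRNAs in the AHARIBO libraries, though not on all of them. For all transcripts together it was 1.78, 1.76 and 1.78 in the standard and 1.91 and 1.81 in the AHARIBO libraries, and for coding genes 1.60 to 1.70 in all 5. For the 120 snRNA transcripts it was 6.55, 7.66 and 4.92 in the standard and 27.2 and 24.1 in the AHARIBO libraries. It was also higher in AHARIBO libraries for other short RNAs, at 4.31 to 4.90 against 8.98 and 8.32 for snoRNA genes and at 4.61 to 5.34 against 13.02 and 16.9 for genes of the type misc_RNA. Among the snRNAs it was uneven. Gm23472 (U2) had 7.51, 8.65 and 5.17 against 37.0 and 35.7, Gm26232 (U1) 8.31, 15.2 and 7.71 against 42.5 and 48.8, and Rnu5g (U5) 6.36, 6.80 and 4.96 against 32.5 and 18.8. Gm24407 (U4) had 6.43, 6.88 and 4.83 against 9.78 and 7.35, and Rnu11 12.8, 16.7 and 12.7 against 14.9 and 13.8, where the groups overlapped.

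**Figure D4:**
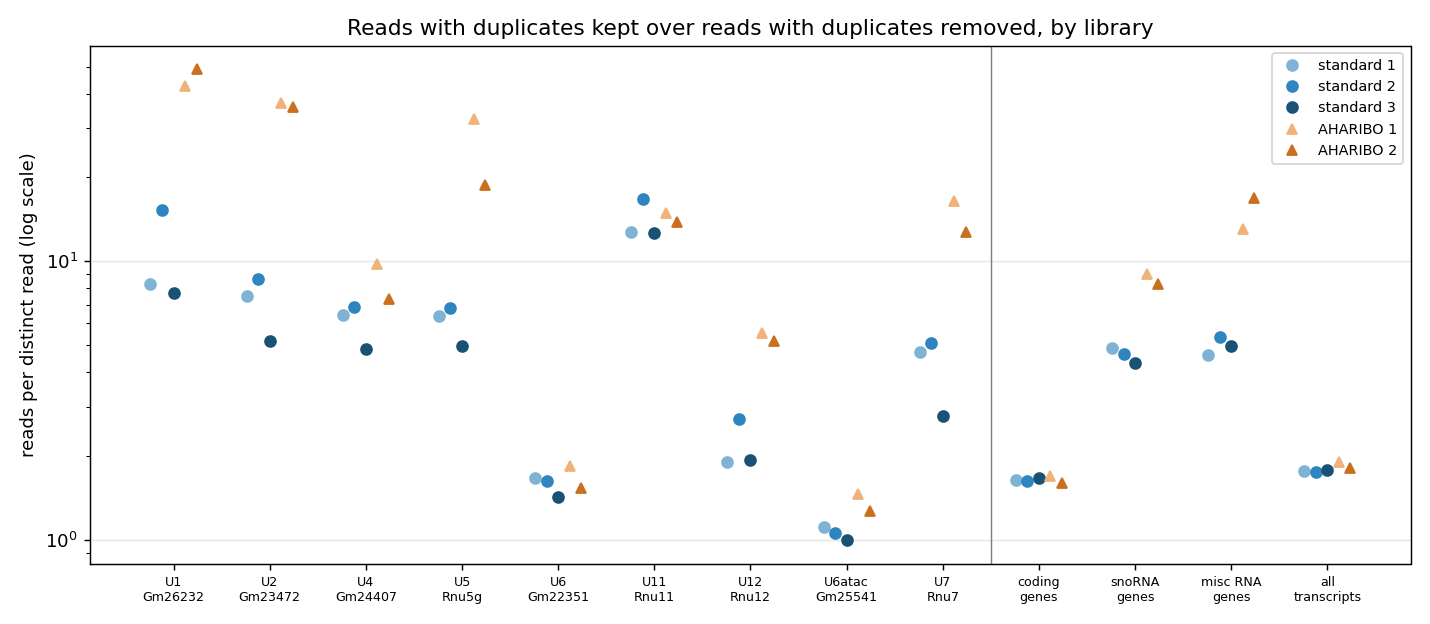
Reads per distinct read (log axis) for the most abundant transcript of each snRNA family and, right of the line, for gene classes, in 3 standard (circles) and 2 AHARIBO (triangles) libraries. U1, U2 and U5 lie at 15.2 or below in the standard and at 18.8 or above in the AHARIBO libraries, U11 lies between 12.7 and 16.7, and coding genes between 1.60 and 1.70.

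Distinct reads were dense on the leading U2, U4 and U5 transcripts. Gm23472 held 2.83, 2.72 and 2.15 distinct reads per nt in the standard and 3.53 and 3.71 in the AHARIBO libraries, Gm24407 held 2.50 to 3.04 and 3.49 and 3.84, and Rnu5g 2.04 to 2.57 and 3.98 and 4.49, against medians of 0.026 to 0.052 over all transcripts tested. Rnu12 held 0.417 to 1.05 over the 5 libraries, Gm25541 (U6atac) 0.063 to 0.206 and Gm22351 (U6) 0.056 to 0.121. The number of distinct fragments that a transcript of this length can give is limited, and the part of that limit in the small changes with duplicates removed was not tested.

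As a share of all reads, the 120 transcripts made up 0.139%, 0.140% and 0.157% of reads in the standard and 0.152% and 0.188% in the AHARIBO libraries with duplicates removed. The groups overlapped. With duplicates kept they made up 0.513%, 0.607% and 0.433% against 2.16% and 2.50%, without overlap. Because most reads on identical copies among the 120 were counted more than 1 time, the same was computed with only the most abundant transcript of each family. With duplicates removed this gave 0.0210%, 0.0210% and 0.0232% against 0.0230% and 0.0279%, where the groups overlapped, and with duplicates kept 0.0863%, 0.109% and 0.0775% against 0.305% and 0.349%, where they did not. Duplicates made up 79.7% to 86.9% of reads on the 120 transcripts in the standard and 96.3% and 95.9% in the AHARIBO libraries, beside 43.3% to 43.8% and 47.7% and 44.9% of all reads.

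The mRNAs of snRNP proteins and of snRNA assembly factors, which are translated, were mostly not called. Of 74 genes listed, each by its most abundant transcript and with duplicates removed, 1 was higher and 4 were lower in AHARIBO RIBO-seq by edgeR, beside 2.27% higher and 2.24% lower of all transcripts tested. At an unadjusted p under 0.05 there were 21 of 74, in both directions. The share of all transcripts at that level is not given here, so this number is a description. The median log2 fold change of the list was -0.05, with a range of -0.52 to 0.46. The higher gene was Tgs1, which modifies the snRNA cap, at 15.6 and 20.5 CPM (log2 fold change 0.40, edgeR adjusted p = 0.0241). The lower genes were Gemin7, part of the complex that loads Sm proteins (21.01 and 14.7 CPM, adjusted p = 0.00287), the U1 protein Snrpc (adjusted p = 0.0153), and the U2 proteins Sf3b5 (adjusted p = 0.0144) and Sf3a2 (adjusted p = 0.0336). All 5 calls were lost without AHARIBO replicate 1 and with DESeq2. Of the 8 Sm protein genes 0 passed in edgeR and 0 in DESeq2, with 2 at an unadjusted p under 0.05 in edgeR and log2 fold changes of -0.26 to -0.03. With duplicates kept, 3 of the 74 genes were called by edgeR. Gemin7 and Sf3b5 were lower (adjusted p = 0.0229 and 0.0295) and Ssb was higher (adjusted p = 0.0303). Tgs1, Snrpc and Sf3a2 were not called in that version (edgeR adjusted p = 0.0587, 0.121 and 0.0881).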

How the data were processed

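The deposited table gave, for 3 standard and 2 AHARIBO RIBO-seq libraries of mESCs, the authors' read counts per transcript in raw form, once without and once with duplicates, and the transcript length. Per the methods, the authors trimmed with Trimmomatic 0.36, discarded rRNA and tRNA reads, mapped with STAR (default settings) on Gencode M17 transcripts, and removed antisense and duplicate reads. The sources used here do not give the rule for reads with several matches. No per-sample column was left unused.

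TMM-scaled CPM were computed in edgeR 4.0.16 under R 4.3.3. Transcripts with 1 CPM in at least 1 library entered the quasi-likelihood test without a block, with Benjamini-Hochberg adjustment over all of them; standard errors are approximate, being the log2 fold change over the root of F. DESeq2 1.42.0 was an alternative. The edgeR step was tested on simulated data. Gene types, positions and sequences came from Gencode M21 (GRCm38), which held 134952 of the 135276 transcripts. Families came from RefSeq names, gene names or similarity in BLAST 2.17.0 (at least 80% identity over 60% of the shorter sequence). The snRNA transcripts and all lists were chosen with earlier results of these data known. Named were all called transcripts, the 10 most abundant, the most abundant of each family, those next to the threshold, host genes of exonic ones and at most 5 snRNP genes. Others, such as Gm24265, Gm25899, Gm22249, Gm22122, Gm26176 and Rnu1b1, were named after their values were seen. Alternatives run on the counts with duplicates, and the use of 1 transcript per family, were added after the data were seen. Sequences of U5 and U6 transcripts are not reported here.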

Additional observations from a re-analysis of the deposited data

How the results depend on the processing

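With duplicates removed, the count of 18 snRNA transcripts higher in AHARIBO RIBO-seq was 16 to 21 with library size, RLE factors, other filters or without the exonic transcripts. It was 2 with DESeq2, 68 with duplicates kept, 2 when counting only the most abundant transcript of each family, and 3 to 18 on leaving out each library, with 3 both without standard replicate 1 and without AHARIBO replicate 2. The count lower was 0, except on leaving out libraries, with a range of 0 to 3. The median log2 fold change was 0.16 to 0.58 on leaving out each library, lowest without AHARIBO replicate 2, and 1.70 with duplicates kept. The share of reads was 0.025 percentage points higher in AHARIBO, 1.81 with duplicates kept, 0.00374 with the most abundant transcript of each family, and 0.00676 to 0.0432 on leaving out each library. With duplicates kept, 68 became 44 with DESeq2 and 48 to 78 on leaving out each library.

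Whether the replicate numbers pair the libraries is not known. Deviations of same-numbered libraries correlated at 0.039 for replicate 1 and -0.083 for replicate 2. With 2 AHARIBO libraries, the deviations of 1 library mirror those of the other, so these values cannot decide it. A fit with the replicate block called 25 snRNA transcripts higher (83 with duplicates kept), and 3 of the listed snRNP genes. That gene list gave 5 calls, 0 with DESeq2, 3 with duplicates kept and 0 to 8 on leaving out each library, with 0 without AHARIBO replicate 1, 1 without standard replicate 1 and 8 without AHARIBO replicate 2.

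Of 416 log2 fold changes of named transcripts under the alternatives, 13 reversed. On leaving out each library, the log2 fold change ranged, with the lowest without AHARIBO replicate 2 and the highest without AHARIBO replicate 1, from -0.040 to 0.22 for Gm23472, from -0.043 to 0.21 for Gm23444, from -0.041 to 0.22 for Gm23971, from -0.039 to 0.22 for Gm23849, Gm24950 and Rnu2-10, from -0.043 to 0.19 for Gm24497, from -0.026 to 0.28 for Gm26316, from -0.039 to 0.36 for Gm26232 and from -0.21 to 0.12 for Gm24407. Gm24407 also reversed to 0.43 with duplicates kept and to 0.026 with the replicate block, from a value near 0. The cause of these changes was not tested. The selection itself gave 156 transcripts at 0.5 CPM, 85 at 2 CPM and 93 when every library of a group had to reach 1 CPM.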
